A study of Mus musculus with 9 samples.

Results

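The let-7 family of microRNAs (miRNAs) was examined in small RNA libraries of mouse atrial appendages. Its members were taken as every miRBase annotation whose name begins with mmu-let-7, with reads summed over the genomic copies that carry the same letter, which gave mmu-let-7a, mmu-let-7b, mmu-let-7c, mmu-let-7d, mmu-let-7e, mmu-let-7f, mmu-let-7g and mmu-let-7i (mmu for Mus musculus, left out below). These 8 members, made from 11 precursor loci, are 8 of 577 miRNAs and of 912 small RNA features counted in the 9 libraries. let-7j (at most 3 reads, in 4 libraries) and let-7k (0.5 to 4.5 reads) also match the prefix and were not counted as members. The libraries came from C57BL/6 mice in 3 groups of 3. Curcumin-treated mice were 18 months old and had received 100 mg/kg of curcumin daily, in non-fat skim milk, between 12 and 18 months of age. Old mice were 18 months old and young mice 5 months old, both without curcumin. The labels do not say whether those mice took the milk alone, nor whether 1 library is 1 animal, so the p-values measure only the spread between these libraries. All libraries were made by PANDORA-seq, in which the enzyme AlkB removes methyl groups that stop reverse transcription and T4 polynucleotide kinase repairs RNA ends for ligation, before small RNAs of 15 to 45 nucleotides are cut from a gel.

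let-7 was discovered in the worm Caenorhabditis elegans as a regulator of developmental timing, and its mature sequence is among the most conserved of animal miRNAs. Each member is cut from a hairpin precursor by Drosha and Dicer and loaded into an Argonaute protein, where the seed, a short stretch near the 5′ end, pairs with target messenger RNAs and lowers their output. Family members share a seed and therefore much of their target range, which in mammals includes Ras genes and Hmga2, and the RNA-binding protein Lin28 blocks their maturation in embryonic and stem cells. Levels are high in differentiated adult tissues, the heart among them.

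The mature sequences show how little separates the members. They are given from RefSeq (GRCm38.p6), 5′ to 3′, with the seed (bases 2 to 8) in capitals, and miR-98 is added because it has the same seed.
let-7a: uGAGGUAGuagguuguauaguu
let-7b: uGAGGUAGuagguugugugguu
let-7c: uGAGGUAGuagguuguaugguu
let-7d: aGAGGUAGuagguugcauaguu
let-7e: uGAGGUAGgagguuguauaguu
let-7f: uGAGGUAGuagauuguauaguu
let-7g: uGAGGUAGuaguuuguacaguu
let-7i: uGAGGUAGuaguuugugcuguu
miR-98: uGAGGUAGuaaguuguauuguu
All 8 members have 22 nucleotides and 1 seed, GAGGUAG. In the reference table this seed occurs in 11 of 1679 mature names: the 8 members, let-7k, miR-98 and miR-1961, which is not analysed here. Counted from 1 at the 5′ end and written with the base of let-7a first, let-7c differs from let-7a by A19G alone, let-7e by U9G alone and let-7f by G12A alone. let-7b carries A17G and A19G, let-7d U1A and U16C, and let-7g G12U and U18C. let-7i is the most distant, with G12U, A17G, U18C and A19U. Position 12 is changed in let-7f, let-7g and let-7i and in no other member.

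Levels are given as reads per 1000000 clean reads (RPM) or per 1000000 miRNA reads (miRNA RPM). The libraries held 12899427 to 19707803 clean reads, of which 210212 to 918466 were miRNA reads and 26516 to 83428.5 were let-7 reads; a value can be fractional because the authors divided reads that matched several annotations. miRNAs took 3.65% ± 0.519 of clean reads in curcumin-treated, 2.30% ± 1.05 in old and 2.63% ± 1.78 in young mice (SD, n = 3 in each group here and below). By library these shares were 3.21%, 4.22% and 3.53% with curcumin, 3.32%, 1.23% and 2.37% in old mice, and 4.66%, 1.34% and 1.88% in young mice, so they spanned several-fold within the old and the young group. The 3 libraries numbered 1 stood apart, with 72.2% to 73.7% of clean reads matched to the genome, against 65.0% to 68.3% in the other 6. Muscle miRNAs marked the tissue, with 7 of 7 detected, 5 of them in all 9 libraries. They summed to 359067 to 431033 miRNA RPM with curcumin, 307036 to 360145 in old and 320562 to 385606 in young mice. Red blood cell miRNAs, 4 of 4 detected, summed to 766 to 1422 with curcumin, 1222 to 3461 in old and 2835 to 6353 in young mice, without overlap between curcumin-treated and young mice. Of the endothelial miRNAs 2 of 2 were detected, but only 1 of them in all 9 libraries. They summed to 214741 to 281663 with curcumin, 247585 to 268484 in old and 220127 to 238274 in young mice. Old and young mice did not overlap in this sum. Leukocyte markers, 4 of 4 detected with miR-142 read as the miR-142a of the files, summed to 2643 to 3811 with curcumin, 2391 to 3461 in old and 2547 to 7908 in young mice, and overlapped in all 3 comparisons. The highest of these sums was in young replicate 1, where miR-142a alone stood at 5941 miRNA RPM, against 1152 to 1165 in the other young libraries. Smooth muscle markers, 2 of 2 detected, summed to 17538 to 18343 with curcumin, above 14146 to 16647 in old and 14454 to 15810 in young mice. The 2 markers went opposite ways, so the sum does not describe both. Per miRNA read, miR-143 was higher in all curcumin libraries, with fitted log2 changes of 0.47 against old and 0.51 against young mice. miR-145a was lower in all of them, at −0.51 and −0.59. Neither was called (edgeR adjusted p = 0.480 against old and 0.245 against young mice for both). Of all 197 miRNAs, 8 were higher and 27 lower in every curcumin library than in every old one. Against young mice these counts were 9 and 19. Markers of epithelium, neurons and liver reached at most 190 miRNA RPM in any library. The part of these markers in the let-7 values was not tested, and in bulk tissue fewer cells of a type cannot be told apart from less RNA per cell.

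Summed over its members, let-7 took 0.306% ± 0.0357 of clean reads in curcumin-treated, 0.224% ± 0.0719 in old and 0.274% ± 0.133 in young mice. The libraries gave 0.265%, 0.324% and 0.330% with curcumin, 0.303%, 0.162% and 0.208% in old mice, and 0.423%, 0.169% and 0.231% in young mice. The highest and the second lowest value both belonged to young mice, and all groups overlapped. Of miRNA reads, let-7 made up 8.28%, 7.68% and 9.35% with curcumin, 9.12%, 13.2% and 8.79% in old mice, and 9.08%, 12.6% and 12.2% in young mice, with means of 8.44% ± 0.846, 10.4% ± 2.43 and 11.3% ± 1.94. The 3 highest of these shares were in old replicate 2 and young replicates 2 and 3, the 3 libraries with the fewest miRNA reads per clean read. The 95% Wilson intervals reach at most 0.00297 percentage points to either side of a share of clean reads and 0.144 points for miRNA reads, and cover counting error only.

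let-7f was the leading member, at a mean of 1054 RPM over the 9 libraries, followed by let-7c at 628, let-7a at 434, let-7i at 223 and let-7b at 194. let-7g at 60.4, let-7d at 56.0 and let-7e at 33.1 were the scarce members. Among all 577 miRNAs by mean miRNA RPM, a scale on which let-7b (8331) stood above let-7i (7987) and let-7d (2264) above let-7g (2152), let-7f ranked 3, let-7c 5, let-7a 8, let-7b 16, let-7i 17, let-7d 35, let-7g 37 and let-7e 47. Part of this order was shared by every library: let-7c exceeded let-7a in 9 of 9, by a median of 1.36-fold, let-7a exceeded let-7i in 9 of 9, let-7b exceeded let-7g in 9 of 9, and let-7d exceeded let-7e in 9 of 9. Other neighbours changed places between libraries. let-7f exceeded let-7c in 7 of 9 libraries, with a fold of 0.855 to 2.24, let-7i exceeded let-7b in 6 of 9, with a fold of 0.491 to 1.92, and let-7g exceeded let-7d in 5 of 9, with a fold of 0.649 to 1.50.

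**Figure D1:**
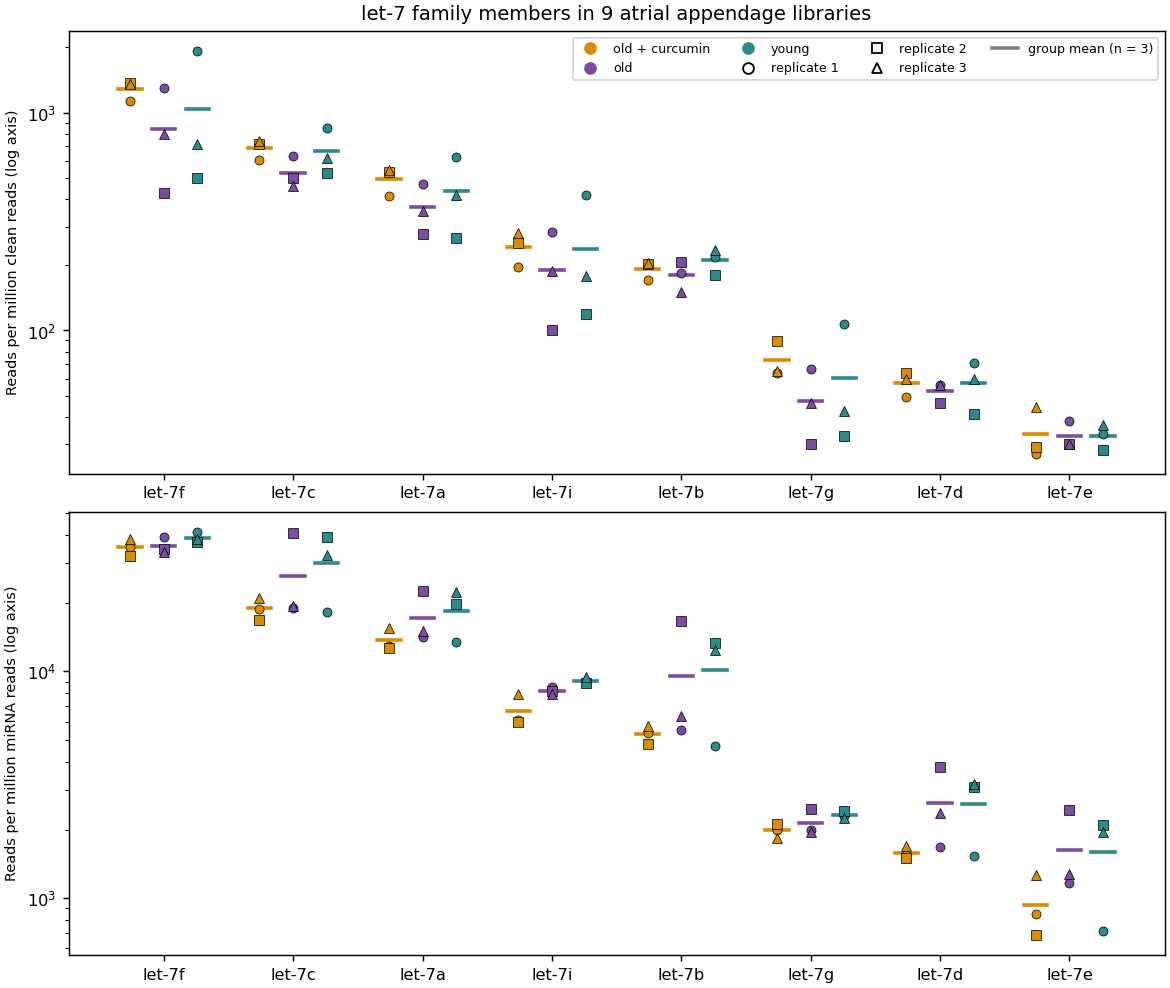
Level of each let-7 member in the 9 libraries, in RPM and in miRNA RPM, on log axes; points are libraries, grouped as old + curcumin, old and young, and bars are group means. let-7f spans 426 to 1910 RPM but 32218 to 40974 miRNA RPM, and let-7b spans 151 to 234 RPM but 4667 to 16719 miRNA RPM.

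The 11 loci that give the members lie on 7 chromosomes, several of them beside other miRNAs (GRCm38, 1-based). On chromosome 13, let-7a-1 (chr13:48538179-48538272), let-7f-1 (chr13:48537829-48537917) and let-7d (chr13:48536012-48536114) lie within 2261 bp, on the minus strand, in exons of the long non-coding RNA 6720427I07Rik. let-7c-2 (chr15:85706603-85706697) and let-7b (chr15:85707319-85707403) lie within 801 bp in an exon of Lncppara, on the plus strand. let-7c-1 (chr16:77599657-77599750, plus) is in an intron of Mir99ahg beside miR-99a, let-7e (chr17:17830352-17830444, plus) in an intron of Spaca6 beside miR-125a, and let-7f-2 (chrX:151912346-151912428, plus) in an intron of Huwe1 beside miR-98. let-7a-2 (chr9:41536716-41536811, plus) lies between miR-100 and miR-125b-1 in an intron of 3110039I08Rik. let-7g (chr9:106178840-106178927, plus) is in an intron of Wdr82, and let-7i (chr10:122985640-122985724, minus) in an exon of D630033A02Rik.

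Reads of mature let-7a, let-7c and let-7f match both of their loci, and the authors divided such reads between them. The deposited values go by precursor and do not separate the 5′ arm, printed here, from the 3′ arm. The precursors, read from the first base of the mature RNA, differ only past its 3′ end, and the capital marks the first differing base.
let-7a-1: ugagguaguagguuguauaguuuUag
let-7a-2: ugagguaguagguuguauaguuuAga
let-7c-1: ugagguaguagguuguaugguuuAga
let-7c-2: ugagguaguagguuguaugguuuUgg
let-7f-1: ugagguaguagauuguauaguuGugg
let-7f-2: ugagguaguagauuguauaguuUuag
The a and c loci are identical through base 23 and differ at base 24, whereas the f loci differ from base 23. The ratio of locus 2 to locus 1 was 0.993 to 1.00 for let-7a and 0.998 to 1.00 for let-7c. For let-7f the ratio of let-7f-2 to let-7f-1 was 1.11, 1.09 and 1.10 with curcumin, 1.15, 1.12 and 1.09 in old mice, and 1.14, 1.17 and 1.15 in young mice. let-7f-2 was the higher locus in 9 of 9 libraries, and the curcumin libraries were all below the young ones, at 1.10 ± 0.00917 and 1.15 ± 0.0152. This ratio was singled out after its values were seen, and no test was made of it.

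The members differed in the scale on which they were steadier. let-7b was steady per clean read, at 171, 201 and 203 RPM with curcumin, 183, 205 and 151 in old mice, and 217, 180 and 234 in young mice, a range of 1.55-fold. In miRNA RPM let-7b stood at 5326, 4771 and 5770 with curcumin, 5525, 16719 and 6375 in old mice, and 4667, 13378 and 12447 in young mice, a range of 3.58-fold. Old replicate 2 and young replicates 2 and 3 were far above the other 6 libraries on this scale, and the curcumin group lay within the range of the others. let-7f did the opposite. It stood at 1127, 1360 and 1353 RPM with curcumin, 1296, 426 and 796 in old mice, and 1910, 500 and 719 in young mice, a range of 4.48-fold. In miRNA RPM the same member was at 35172, 32218 and 38376 with curcumin, 39044, 34719 and 33606 in old mice, and 40974, 37258 and 38154 in young mice, a range of 1.27-fold in which all groups overlapped.

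let-7g and let-7i had the same extremes as let-7f. let-7g stood at 64.0, 89.8 and 65.2 RPM with curcumin, 66.2, 30.2 and 46.3 RPM in old mice, and 107, 32.6 and 42.7 RPM in young mice, and let-7i at 195, 251 and 281 RPM with curcumin, 282, 101 and 188 RPM in old mice, and 417, 120 and 177 RPM in young mice. Young replicate 1 was the highest and old replicate 2 the lowest library for all 3 of these members. let-7d, at 49.5, 63.7 and 59.6 RPM with curcumin, 56.0, 46.5 and 56.2 RPM in old mice, and 71.1, 41.5 and 59.8 RPM in young mice, spanned 1.72-fold. let-7e, at 27.2, 29.1 and 44.5 RPM with curcumin, 38.5, 30.1 and 30.2 RPM in old mice, and 33.4, 28.2 and 36.8 RPM in young mice, spanned 1.64-fold. All groups overlapped for each of these members.

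The standard deviation of the log2 level over the 9 libraries was 0.193 per clean read and 0.716 per miRNA read for let-7b, 0.238 and 0.674 for let-7e, 0.240 and 0.531 for let-7d, and 0.289 and 0.505 for let-7c. For the members steadier per miRNA read it was 0.727 per clean read and 0.113 per miRNA read for let-7f, 0.623 and 0.147 for let-7g, 0.639 and 0.236 for let-7i, and 0.429 and 0.334 for let-7a. Of 191 tested miRNAs with reads in every library, let-7b, let-7e and let-7d ranked 2, 3 and 4 from the steadiest per clean read, and let-7f ranked 2 per miRNA read. The members thus split into 4 and 4, beside 64 of the 191 miRNAs (33.5%) that were steadier per clean read. With 8 members this split is near that share, and it goes only by which standard deviation is lower. let-7a was only a little steadier per miRNA read, and ranked 24 per clean read and 47 per miRNA read. The 3 members with a changed base 12, let-7f, let-7g and let-7i, were in the set steadier per miRNA read. let-7a, whose base 12 is not changed, was in this set too. let-7b had the most guanines of the members, 10 of its 22 bases, and let-7f and let-7g the fewest, 7 each. let-7d had 8, the same as let-7a and let-7i. The part of base 12 or of the guanine count in the spread was not tested. These are descriptions over libraries that share their total counts, with no test.

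**Figure D2:**
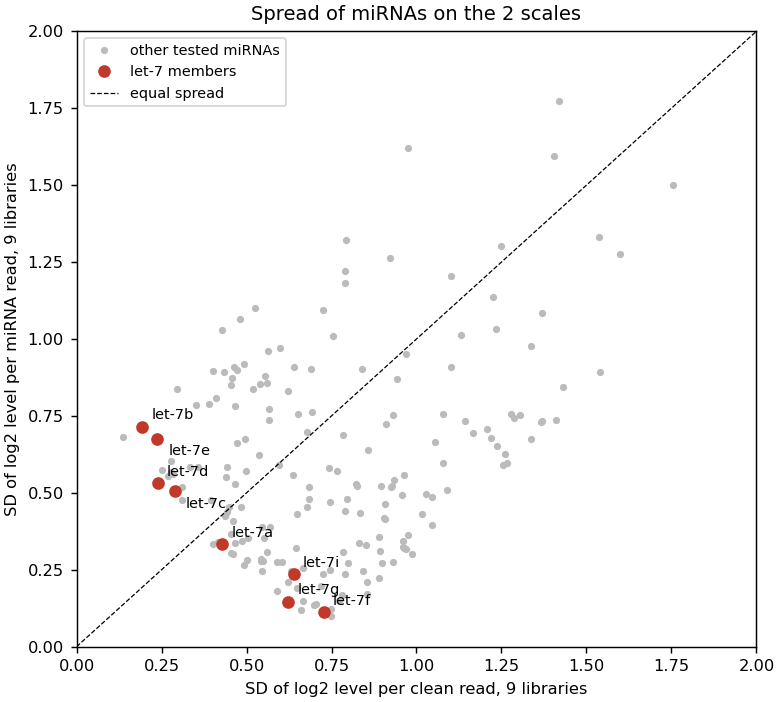
Standard deviation of the log2 level over 9 libraries, per clean read (horizontal) and per miRNA read (vertical), for 191 tested miRNAs; red points are the let-7 members and the dashed line marks equal spread. let-7b, let-7e, let-7d and let-7c lie above the line, at 0.193 to 0.289 per clean read, and let-7f, let-7g, let-7i and let-7a below it.

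The make-up of the family therefore varied between libraries of 1 group. let-7f made up 42.5%, 41.9% and 41.0% of let-7 reads with curcumin, 42.8%, 26.4% and 38.2% in old mice, and 45.1%, 29.5% and 31.2% in young mice. let-7b made up 6.43%, 6.21% and 6.17% with curcumin, 6.06%, 12.7% and 7.25% in old mice, and 5.14%, 10.6% and 10.2% in young mice. The 3 curcumin libraries were close to each other and to the libraries numbered 1 of the other groups, and the 3 libraries with the lowest miRNA share had the most let-7b and the least let-7f. let-7c, at 20.1% to 31.0%, followed let-7b in that its highest shares were in old replicate 2 and young replicate 2. let-7a took 14.8% to 18.2% and let-7i 6.25% to 9.85% of let-7 reads.

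Of the 28 ratios between members, the widest over the 9 libraries was let-7b to let-7f, which differed 4.23-fold between its extremes. It was 0.151, 0.148 and 0.150 with curcumin, 0.142, 0.482 and 0.190 in old mice, and 0.114, 0.359 and 0.326 in young mice, so that all groups overlapped. The steadiest ratio was let-7f to let-7i, within 1.42-fold. It was 5.77, 5.41 and 4.83 with curcumin, 4.59, 4.23 and 4.24 in old mice, and 4.58, 4.19 and 4.06 in young mice. Every curcumin library was above every old and every young library in this ratio. Groups did not overlap in 4 of 28 ratios between curcumin-treated and old mice, in 1 of 28 between curcumin-treated and young mice, and in 1 of 28 between old and young mice. In the same comparisons, groups did not overlap per clean read for 13.1%, 10% and 4.22% of all features, which are single levels and not ratios. The ratios share members and were named after their values were seen, so they have no test.

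**Figure D3:**
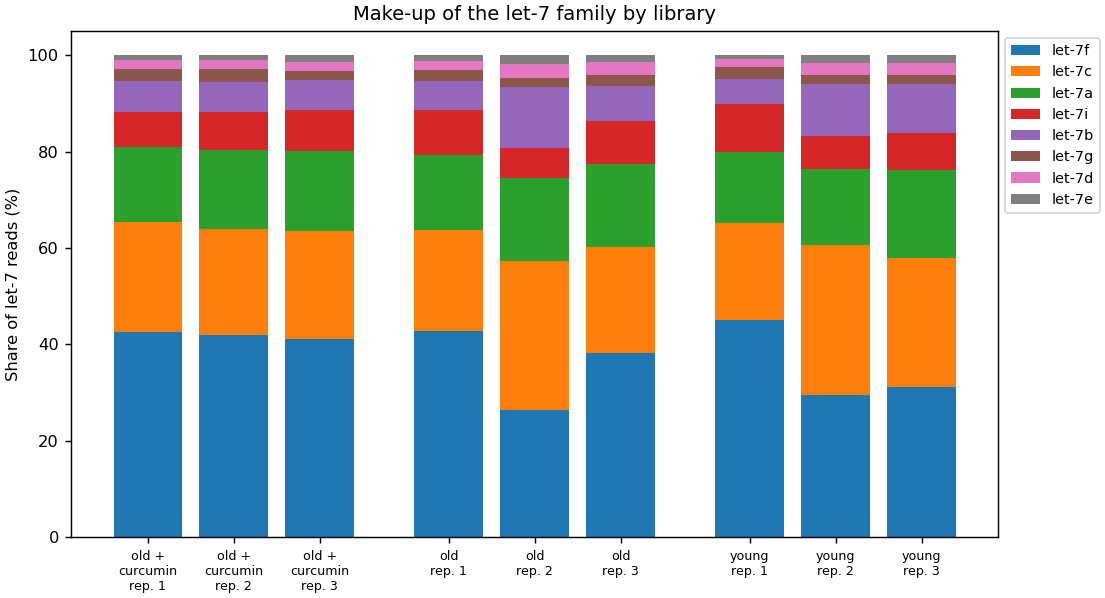
Share of each member in the let-7 reads of each library, in percent, for the 3 libraries of old + curcumin, old and young mice; each bar adds to the whole family. let-7f is the largest segment except in old replicate 2 and young replicate 2, where it falls to 26.4% and 29.5% of let-7 reads and let-7c takes 30.9% and 31.0%.

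Whether let-7 differed with treatment at 1 age is addressed by setting curcumin-treated against untreated old mice. Fits were made in edgeR on 2 scales, per clean read over 498 features and per miRNA read over 197 miRNAs, and a feature was called at a Benjamini-Hochberg adjusted p under 0.05. Per clean read 0 of 8 members were called, against 0% of all features, and at an unadjusted p under 0.05 there were 21 features. Fitted log2 changes were positive for 8 of 8 members, though let-7b, let-7d and let-7e turned negative under TMM and RLE scaling. They were 0.61 (SE 0.52) for let-7f, 0.62 (SE 0.49) for let-7g, 0.44 (SE 0.34) for let-7a, 0.37 (SE 0.26) for let-7c and 0.35 (SE 0.50) for let-7i, and 0.03 to 0.12 for let-7b, let-7d and let-7e. The smallest adjusted p among the members was 0.845 (edgeR). Their median of 0.36 lay between that of all tested miRNAs, 0.46 with 158 of 187 positive, and that of all features, 0.31 with 362 of 498 positive. The groups were separate for 0 of 8 members and for 13.1% of all features.

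Per miRNA read the same 8 members all had negative fitted changes against old mice, with let-7f and let-7g positive under TMM and RLE scaling. The changes were −0.85 (SE 0.45) for let-7b, −0.80 (SE 0.44) for let-7e, −0.73 (SE 0.34) for let-7d and −0.47 (SE 0.33) for let-7c, but −0.02 (SE 0.13) for let-7f. Their median was −0.40, beside −0.27 over all 197 miRNAs, of which 136 were negative. The edgeR fit called 0 of 8 members and 0% of all miRNAs, the smallest adjusted p of a member was 0.505, and 17 miRNAs had an unadjusted p under 0.05. Curcumin libraries were all below the old ones for 0 of 8 members and for 13.7% of miRNAs. let-7d, a member of the chromosome 13 cluster whose first base is not the usual U, stood at 1543, 1509 and 1690 miRNA RPM with curcumin and 1687, 3789 and 2375 in old mice. Only old replicate 1 fell within the curcumin range.

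Without the 3 libraries numbered 1, which leaves 2 libraries a group, both scales gave calls against old mice. let-7f per clean read rose by 1.15 (SE 0.32, edgeR adjusted p = 0.0489), as 1 of 8 members called where 7.6% of features were. Per miRNA read let-7d fell by 0.94 on the log2 scale (SE 0.22, edgeR adjusted p = 0.0317), again 1 of 8 members where 8.65% of miRNAs were called. let-7f had 1360 and 1353 RPM in the curcumin libraries that remained, against 426 and 796 in the old ones. The miRNA share of clean reads in these libraries was 4.22% and 3.53% with curcumin and 1.23% and 2.37% in old mice; its part in the change per clean read was not tested. With those libraries left out, let-7f per miRNA read changed by 0.05.

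The family sum against old mice went in opposite directions on the 2 scales, and on neither were the groups separate. Per clean read the share was higher by 0.0824 percentage points with curcumin, and within replicate numbers 1, 2 and 3 the difference was −0.0372, 0.163 and 0.122 points. Without the libraries numbered 1 it was 0.142 points. Of miRNA reads it was −1.92 points, and within the numbers −0.836, −5.48 and 0.563 points. The labels do not say whether libraries of the same number in different groups belong together.

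Curcumin-treated mice were also set against young mice, which asks how treated old atria compare with young ones; the curcumin libraries are the same as above. Per clean read the members were spread around 0. The fitted changes were between −0.13 (SE 0.25) for let-7b and 0.30 (SE 0.52) for let-7f, with a median of 0.04, beside 0.26 over 187 miRNAs and 0.18 over 498 features. They were positive for 7 of 8 members, but TMM scaling turned let-7c, let-7d and let-7e negative and RLE scaling let-7i too. The edgeR fit called 0 of 8 members (0% of features), with a smallest adjusted p of 0.995 for a member and 20 features at an unadjusted p under 0.05. No member had separate groups, where 10% of features had them, and without the libraries numbered 1 no member was called where 6.6% of features were; let-7f then changed by 1.15 (edgeR adjusted p = 0.0501).

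Per miRNA read, 8 of 8 members had negative changes against young mice, with a median of −0.55 beside −0.29 over 197 miRNAs, of which 140 were negative; let-7f turned positive under TMM and RLE scaling and let-7g under RLE. No member passed the edgeR test, which called 0% of miRNAs, and 26 miRNAs had an unadjusted p under 0.05. let-7i, encoded on chromosome 10 apart from the clusters, stood at 6095, 5955 and 7953 miRNA RPM with curcumin and 8944, 8901 and 9397 in young mice. All curcumin libraries were below all young ones. The change was −0.45 (SE 0.16), with an unadjusted p of 0.0195 and an edgeR adjusted p of 0.274, the smallest of any member. let-7g, from an intron of Wdr82, stood at 1996, 2126 and 1849 with curcumin and 2290, 2431 and 2265 in young mice, again without overlap, at a change of −0.23 (SE 0.18). Curcumin libraries were thus all lower for 2 of 8 members, where 9.64% of miRNAs were.

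The larger fitted changes against young mice were those of let-7b at −0.94 (SE 0.46), let-7e at −0.77 (SE 0.44), let-7d at −0.71 (SE 0.34) and let-7c at −0.66 (SE 0.33), whose groups overlapped because of young replicate 1. let-7e stood at 848, 689 and 1261 miRNA RPM with curcumin and 716, 2103 and 1953 in young mice. let-7d was at 1543, 1509 and 1690 with curcumin and 1526, 3087 and 3173 in young mice. Without young replicate 1 the edgeR fit called 3 of 8 members, where 14.4% of miRNAs were called. let-7b fell by 1.29 (edgeR adjusted p = 0.0474), let-7d by 0.99 (edgeR adjusted p = 0.0426) and let-7e by 1.12 (edgeR adjusted p = 0.0491). With all 9 libraries the edgeR adjusted p was 0.325 for let-7b and let-7d and 0.394 for let-7e. No other fit that left out a single library called any feature. The part of the leukocyte markers, highest in young replicate 1, in these 3 calls was not tested. Without all 3 libraries numbered 1, let-7d fell by 0.97 (SE 0.22, edgeR adjusted p = 0.0113), 1 of 8 members where 17.3% of miRNAs were called. With the replicate number as a block the per-miRNA fit called 1 miRNA, which was no let-7 member. The sum of the red blood cell miRNAs did not overlap between these groups, as given above, but miR-144 alone did overlap. The part of these miRNAs was not tested.

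Against young mice the family sum was 0.0321 percentage points of clean reads higher with curcumin, and within replicate numbers 1, 2 and 3 the difference was −0.158, 0.155 and 0.0992 points. Of miRNA reads it was −2.88 points, and within the numbers −0.803, −4.93 and −2.89 points. The difference in miRNA reads was negative for all 3 numbers, although the pooled groups overlapped. As the labels give no pairing by number, these differences are descriptions only.

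**Figure D4:**
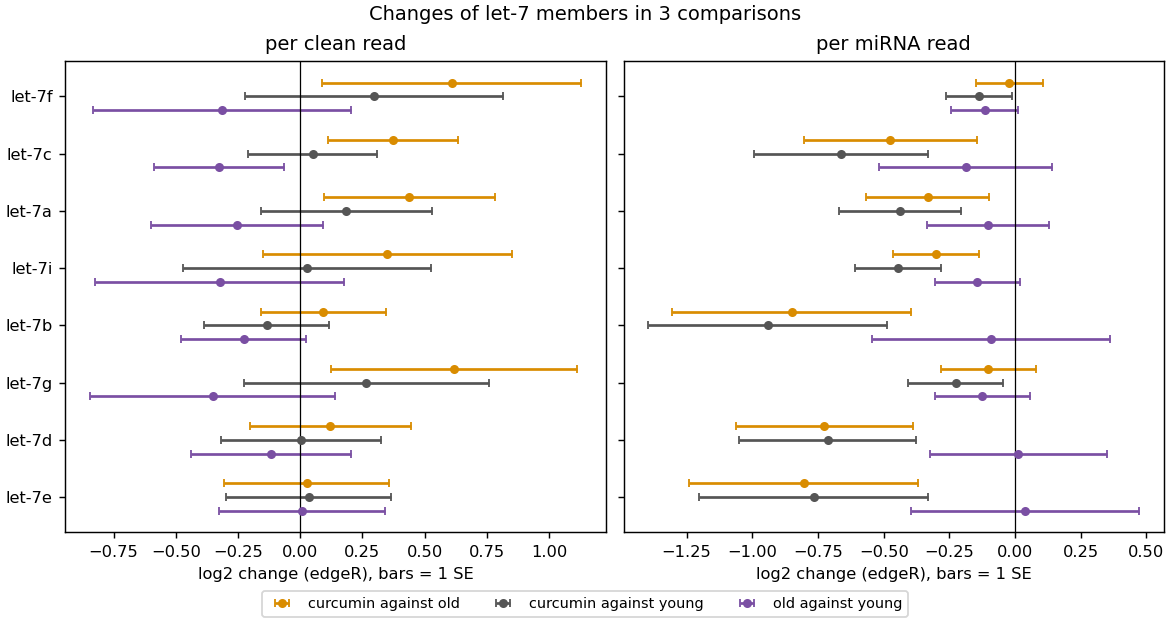
Fitted log2 change of each let-7 member (edgeR) for curcumin against old, curcumin against young and old against young mice, per clean read on the left and per miRNA read on the right; bars are 1 standard error. Per clean read 8 of 8 changes are positive for curcumin against old and 7 of 8 negative for old against young, and per miRNA read 8 of 8 are negative for curcumin against old and against young; none passed the test.

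Differences with age are addressed by setting old against young mice, and no let-7 member was called here under any alternative. Per clean read the fitted changes lay between −0.35 (SE 0.49) for let-7g and 0.01 (SE 0.33) for let-7e. They were negative for 7 of 8 members with a median of −0.28, beside 137 of 187 miRNAs negative with a median of −0.23. The edgeR fit called 0 of 8 members and 0% of features, the smallest adjusted p of a member was 0.996, and 4 features had an unadjusted p under 0.05. The groups were separate for 0 of 8 members, where they were for 4.22% of features. let-7c, at 634, 498 and 459 RPM in old mice and 851, 526 and 616 in young mice, and let-7a, at 469, 278 and 355 in old mice and 627, 266 and 420 in young mice, both overlapped. Within replicate numbers 1, 2 and 3 the family sum differed by −0.121, −0.00786 and −0.0226 percentage points of clean reads, with a mean of −0.0504 points; without young replicate 1 it was 0.0241 points.

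Per miRNA read the old and young means were close for most members, and 6 of 8 fitted changes were negative with a median of −0.11, beside −0.07 over 197 miRNAs. let-7i stood at 8503, 8217 and 7920 miRNA RPM in old mice and 8944, 8901 and 9397 in young mice. Every old library was below every young one, with a change of only −0.14 (SE 0.16). This was 1 of 8 members, where 3.55% of miRNAs were lower in all old libraries. let-7a, at 14137, 22613 and 15001 in old mice and 13454, 19830 and 22320 in young mice, and let-7c, at 19113, 40606 and 19369 in old mice and 18264, 39153 and 32698 in young mice, overlapped. The edgeR fit called 0 of 8 members and 0% of miRNAs, with a smallest adjusted p of 0.989 for a member and 3 miRNAs at an unadjusted p under 0.05. The family sum differed by −0.959 points of miRNA reads, and within the numbers by 0.0330, 0.544 and −3.45 points.

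The miRNAs next to let-7 in the genome were followed as a list of 6: miR-98, miR-99a, miR-99b, miR-100, miR-125a and miR-125b, of which miR-98 also has the let-7 seed. In each of the 3 comparisons and on both scales edgeR called 0 of 6. Their median change per clean read was 0.29 for curcumin against old, 0.27 for curcumin against young and −0.02 for old against young mice, and per miRNA read it was −0.32, −0.41 and 0.03. miR-98, which shares an intron of Huwe1 with let-7f-2, stood at 107, 195 and 226 miRNA RPM with curcumin, 310, 93.9 and 184 in old mice, and 368, 262 and 403 in young mice, from 20 to 338 reads a library. All curcumin libraries were below all young ones, at a change of −0.97 (SE 0.45, edgeR adjusted p = 0.325), while old and young mice overlapped. No other of the 6 was lower in all curcumin than in all young libraries, where 9.64% of miRNAs were. Per miRNA read, all curcumin libraries were below all old ones for 3 of the 6, miR-125a, miR-125b and miR-99b, where 13.7% of miRNAs were. miR-125a, next to let-7e, stood at 4925, 4671 and 5596 miRNA RPM with curcumin and 6588, 8044 and 6750 miRNA RPM in old mice, a change of −0.49 (edgeR adjusted p = 0.505). miR-125b changed by −0.45 (edgeR adjusted p = 0.559) and miR-99b by −0.76 (edgeR adjusted p = 0.505).

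Of the other tested miRNAs with a mean of at least 100 miRNA RPM, 117 were compared with the let-7 sum by the root mean square difference of their centred log2 levels per miRNA read over the 9 libraries, the same 9 libraries for every profile. The closest were miR-130a (0.156), miR-490 (0.156), miR-125a (0.157), miR-872 (0.159) and miR-103 (0.164), where the median over all compared was 0.420. miR-125a averaged 5064 miRNA RPM with curcumin, 7127 in old and 6988 in young mice, and miR-130a 1497 with curcumin, 1879 in old and 2141 in young mice.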

How the data were processed

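Expected counts per annotation were deposited by the authors without normalization; reads that matched several annotations had been divided among them. The submitters' processing notes name cutadapt 2.5 and mm10. Which program annotated the reads, and how molecular identifiers were treated, is not stated in the sources used here. Reads with and without a genome match were summed, loci of 1 miRNA were summed, and ends already held in tRNA totals were subtracted. Values were rounded and fitted in edgeR 4.0.16 (R 4.3.3; quasi-likelihood, robust, filterByExpr, group only, 9 libraries), with clean reads (498 features tested of 912) or miRNA reads (197 of 577) as library size, and Benjamini-Hochberg adjustment over all tested. Features held 83.7% to 87.3% of clean reads. On data simulated for old against young mice, 200 of 498 features or 60 of 197 miRNAs were given log2 changes of 1 to 3. Changes of 2 were recovered for 72.9% of features per clean read and 52.4% of miRNAs per miRNA read. For log2 changes of 1 these shares were 18.2% per clean read and 23.8% per miRNA read. False calls numbered 6 per clean read and 1 per miRNA read. So many changed features ease the adjusted cutoff, so these shares are not the power of the fits to the data. Recovery with fewer changed features was not simulated. The members and lists were chosen with earlier results of these data known. Named were the members, their loci, seed relatives, cluster partners, the 5 miRNAs closest in profile, and single cell type markers where a sum turned on them. miR-202 is not analysed here. Alternatives were TMM and RLE scaling, DESeq2 1.42.0, filters, other denominators, the replicate block, and left-out libraries. The deviations of libraries from their group means were correlated between same-numbered libraries. Correlations were over 0.1 in every pair for old against young and curcumin against young per clean read. This was also so for curcumin against young per miRNA read. The last had correlations of 0.32, 0.19 and 0.105 for numbers 1, 2 and 3. Old against young per miRNA read missed this cutoff, with 0.56, 0.42 and 0.05. Curcumin against old missed it on both scales, with −0.03 per clean read and 0.04 per miRNA read for number 2. The cutoff was not tested. The 3 values of a comparison are not independent, because deviations from a group mean sum to 0. The annotation was GENCODE on GRCm38.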

Additional observations from a re-analysis of the deposited data

How the results depend on the processing

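Scaling moved the centre: TMM shifted the median of all features by −0.18 per clean read and 0.23 per miRNA read for curcumin against old mice, and by −0.14 and 0.18 against young mice; RLE shifted it by −0.24 and 0.26, and by −0.21 and 0.20. Under TMM, curcumin against old reversed per clean read for let-7b (−0.0635), let-7d (−0.0375) and let-7e (−0.11) and per miRNA read for let-7f (0.19) and let-7g (0.12); against young, for let-7c (−0.0533), let-7d (−0.10) and let-7e (−0.0875), and per miRNA read for let-7f (0.0643). Under RLE, against old, let-7b (−0.13), let-7d (−0.0905), let-7e (−0.16), and per miRNA read let-7f (0.20) and let-7g (0.14) reversed; against young, let-7c (−0.13), let-7d (−0.18), let-7e (−0.16) and let-7i (−0.0650), and per miRNA read let-7f (0.0795) and let-7g (0.0045). With miRNA reads outside let-7 as denominator, let-7d of old against young was −0.0003.

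Without the 3 libraries numbered 1, curcumin against old gave 38 called features per clean read and 16 per miRNA read, curcumin against young 33 and 32, and old against young 0 and 0. The family difference per clean read against old was 0.142 points. Old against young reversed per clean read for let-7d (0.0221), let-7e (−0.11), let-7f (0.0032) and let-7g (0.0228) and per miRNA read for let-7d (−0.0251) and let-7e (−0.12), and curcumin against old per miRNA read for let-7f (0.0471). DESeq2 called 1 feature per clean read and 2 per miRNA read for curcumin against young; with no filter 3 miRNAs against old and 5 against young were called. With the replicate block the count was 1 for curcumin against young per miRNA read, and the block changed no other call. The cause of these changes was not tested.

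Leaving out each library in turn, 22 of 48 member changes reversed in at least 1 fit. Their ranges were, for curcumin against old per clean read, let-7b −0.018 to 0.20, let-7e −0.23 to 0.16. They were, for curcumin against old per miRNA read, let-7f −0.087 to 0.045, let-7g −0.16 to 0.012. They were, for curcumin against young per clean read, let-7a −0.072 to 0.54, let-7c −0.093 to 0.27, let-7d −0.18 to 0.19, let-7e −0.22 to 0.16, let-7f −0.038 to 1.07, let-7g −0.034 to 0.96, let-7i −0.29 to 0.71. They were, for old against young per clean read, let-7a −0.51 to 0.097, let-7d −0.31 to 0.064, let-7e −0.12 to 0.097, let-7f −0.77 to 0.46, let-7g −0.67 to 0.34, let-7i −0.72 to 0.36. They were, for old against young per miRNA read, let-7a −0.35 to 0.052, let-7b −0.77 to 0.18, let-7c −0.64 to 0.049, let-7d −0.35 to 0.25, let-7e −0.38 to 0.29. Counts of called features lay between 0 and 29, the 29 for curcumin against young per miRNA read without young replicate 1, and 0 in every other such fit. The family difference, in percentage points, lay within 0.0512 to 0.122 of clean and −2.70 to −0.515 of miRNA reads for curcumin against old, −0.0205 to 0.107 and −3.99 to −2.22 for curcumin against young, and −0.103 to 0.0241 and −2.36 to −0.175 for old against young.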
